A study of Mus musculus with 12 samples.

Results

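Peaks of H3K36ac, the acetylation of lysine 36 on the tail of histone H3, were examined inside the longest genes of the mouse genome. A peak was a member when its summit lay in a protein-coding RefSeq gene (GRCm38.p6, the assembly that mm10 names) that spanned 500 kb or more on chromosomes 1 to 19. Of 20665 such protein-coding genes, 216 were that long, and they held 8240 of the 108914 peaks on these chromosomes. The comparison genes were the 3780 of 50 to 200 kb, which held 15884 peaks; a base that also lay in a long gene was counted with the long gene.

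The libraries came from liver tumours of mice given anti-PD-1, an antibody that blocks an inhibitory receptor on T cells. The Trem2-MKO mice lack Trem2, a lipid-sensing receptor of macrophages, in myeloid cells, and the LysM-Cre mice carry the Cre driver without that loss; both groups received the same treatment and had 3 H3K36ac libraries each. LysM-Cre is active mainly in macrophages, monocytes and granulocytes, whereas the chromatin was from whole ground tumour, in which tumour cells and other cells outside the myeloid lineage keep the gene. Strain, age, tumour model and the design of the Trem2 allele are not given in the sources used here.

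Acetylation of H3 lysine 36 is found mainly at promoters of transcribed genes, where GCN5-type acetyltransferases can place it, while methylation of the same residue is spread over transcribed gene bodies. Very long genes are long because of their introns. Many encode adhesion molecules, receptors and channels of neurons, several others act in liver or blood cells, and some lie at common fragile sites, regions that break when DNA replication is slowed.

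The lists differed widely in size before any gene was considered. Trem2-MKO replicates 1, 2 and 3 had 29759, 6823 and 4627 peaks on these chromosomes, and LysM-Cre replicates 1, 2 and 3 had 18167, 29731 and 19807. The number of DNA fragments under a peak summit, recovered from the authors' fold and p-value, had a median of 11 in Trem2-MKO replicate 1 and in all 3 LysM-Cre libraries, against 20 and 23 in Trem2-MKO replicates 2 and 3, the libraries with the shortest lists. A peak of at least 1 library overlapped the promoter window of 0 of 7 hepatocyte genes with such a window (Alb, which encodes albumin, and Apoa1 among them), of 1 of 3 macrophage genes (Itgam, in 1 library) and of 0 of 3 T cell genes, where 4.82% of the windows of all genes had one. In gene bodies, 3 of 9 hepatocyte genes and 3 of 6 macrophage genes (Adgre1 in 4 libraries) had a peak in at least 1 library. So did 3 of 4 genes listed for T cells (Ptprc in 4 libraries). Ptprc is expressed in other white blood cells too. A peak in a gene body depends on gene length and list size, and no share over all genes is given beside these counts. Of the 50 to 200 kb genes, 13.7% (Trem2-MKO replicate 3) to 65.7% (Trem2-MKO replicate 1) held a summit in a single library. Counts this small do not check the labelled tissue. Trem2 itself had no peak in its body or its promoter window in any of the 6 libraries, so the lists do not check the deletion.

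Promoters are where this mark is known to concentrate, and the RefSeq promoter table (GRCm38.p6; 250 bases before to 50 after a start) held 271 windows for 169 of the 216 long genes. A peak of at least 1 library overlapped 17 of these windows (6.27%), in 16 genes, beside 5.19% of windows of the 50 to 200 kb genes and 4.82% of the 20085 windows of all genes. Windows of 5 of the 16 genes follow, chosen by the number of libraries and then by gene length, because a peak overlapped each of them. CpG dinucleotides are in capitals. The windows are those of Celf2 at chr2:7396149-7396448 (minus strand), Magi2 at chr5:19226796-19227095 (plus), Gpc5 at chr14:115091965-115092264 (plus), Tenm3 at chr8:48674641-48674940 (minus) and Rbfox1 at chr16:5884543-5884842 (plus).
Celf2: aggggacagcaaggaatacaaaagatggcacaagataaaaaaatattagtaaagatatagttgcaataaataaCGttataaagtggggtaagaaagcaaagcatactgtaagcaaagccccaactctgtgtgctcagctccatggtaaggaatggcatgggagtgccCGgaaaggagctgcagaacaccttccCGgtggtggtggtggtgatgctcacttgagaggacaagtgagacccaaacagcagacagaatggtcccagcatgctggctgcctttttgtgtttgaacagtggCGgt
Magi2: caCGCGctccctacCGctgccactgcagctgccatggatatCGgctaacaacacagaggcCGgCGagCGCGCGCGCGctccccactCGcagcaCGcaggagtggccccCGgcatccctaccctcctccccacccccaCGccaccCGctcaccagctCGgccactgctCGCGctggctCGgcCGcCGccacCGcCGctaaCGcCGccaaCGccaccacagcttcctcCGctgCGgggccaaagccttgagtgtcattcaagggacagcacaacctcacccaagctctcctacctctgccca
Gpc5: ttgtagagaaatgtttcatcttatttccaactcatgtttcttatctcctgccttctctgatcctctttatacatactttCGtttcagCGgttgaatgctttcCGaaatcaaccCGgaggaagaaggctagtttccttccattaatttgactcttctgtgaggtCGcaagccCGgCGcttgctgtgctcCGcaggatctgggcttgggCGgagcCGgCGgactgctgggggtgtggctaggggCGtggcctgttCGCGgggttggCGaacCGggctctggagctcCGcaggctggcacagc
Tenm3: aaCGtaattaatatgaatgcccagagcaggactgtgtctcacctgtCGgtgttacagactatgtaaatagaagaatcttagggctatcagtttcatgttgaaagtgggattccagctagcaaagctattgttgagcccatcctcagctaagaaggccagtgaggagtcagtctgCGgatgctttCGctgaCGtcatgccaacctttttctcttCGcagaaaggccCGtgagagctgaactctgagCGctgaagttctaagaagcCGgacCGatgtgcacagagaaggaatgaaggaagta
Rbfox1: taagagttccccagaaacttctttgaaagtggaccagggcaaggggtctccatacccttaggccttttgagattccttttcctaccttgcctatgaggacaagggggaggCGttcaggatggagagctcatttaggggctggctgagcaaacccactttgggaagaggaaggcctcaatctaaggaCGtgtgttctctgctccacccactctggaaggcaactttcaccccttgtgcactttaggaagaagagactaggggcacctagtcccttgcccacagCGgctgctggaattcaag

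The 5 windows differ in base composition. The Magi2 window is rich in CpG, with 29 and 69.3% G+C, and the Gpc5 window has 17 CpG and 54.7% G+C. Tenm3 has 10, Celf2 has 4 and Rbfox1 has 3. The 17 windows with a peak had a median of 17 CpG, against 11 in the long-gene windows without a peak. In the 50 to 200 kb genes the order was the reverse, with medians of 18 with a peak and 19 without, and over all genes the medians were 17 with a peak and 13 without. The letters GGGCGG, the core of a GC box, were searched on both strands and occurred in 41.0% of long-gene windows, beside 57.4% of windows of 50 to 200 kb genes and 47.0% of all windows; of the 5 shown, only the Gpc5 window holds them. TATAAA, searched the same way, occurred in 9.23% of long-gene windows, 8.20% of windows of 50 to 200 kb genes and 12.7% of all windows, and is present in the windows shown for Celf2 and Gpc5. Such matches describe the letters only.

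Celf2, which encodes an RNA-binding regulator of splicing, was the long gene whose promoter window was reached in more than 1 library. The peak of Trem2-MKO replicate 2 ran over chr2:7396041-7396465 with 24 fragments at its summit and a fold of 3.28 over local background, and that of Trem2-MKO replicate 3 over chr2:7395955-7396389 with 29 fragments and a fold of 3.49. Their summits lay 57 bases before and 97 bases after the annotated start of the window shown, so the first is inside that window and the second past its edge at 50 bases after the start. Trem2-MKO replicate 1 and the 3 LysM-Cre libraries had no peak there. The Magi2 window, of a synaptic scaffold gene, was met by a peak of Trem2-MKO replicate 2 with 51 fragments and a fold of 3.14, the Gpc5 window, of a heparan sulphate glypican, by a weaker peak of Trem2-MKO replicate 1 with a fold of 1.79, the Tenm3 window, of a teneurin adhesion molecule, by LysM-Cre replicate 2 with a fold of 3.59, and the Rbfox1 window, of a splicing regulator of neurons and muscle, by LysM-Cre replicate 3 with a fold of 3.55. By library, 3, 6 and 2 of the 271 windows had a peak in Trem2-MKO replicates 1, 2 and 3, and 1, 2 and 5 in LysM-Cre replicates 1, 2 and 3. The share was 2.21% in Trem2-MKO replicate 2, where 0.573% of all windows had one. These are 6 windows, and no test was made. Among them are 2 overlapping windows of Celf2 reached by the same peak. The 2 windows of Trem2-MKO replicate 3 are those same Celf2 windows, also reached by a single peak. In Trem2-MKO replicate 2 the Cdk14 and Lhfpl3 windows had weaker peaks, with folds of 1.54 and 1.98 over local backgrounds of 52.0 and 26.0.

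Peaks were about as dense in long genes as in genes of 50 to 200 kb. Long genes held 11.8, 2.82 and 2.14 summits per Mb in Trem2-MKO replicates 1, 2 and 3, and 7.79, 13.0 and 8.23 in LysM-Cre replicates 1, 2 and 3. The 50 to 200 kb genes held 12.7, 2.97 and 1.64 summits per Mb in the Trem2-MKO libraries and 7.55, 11.9 and 8.39 in the LysM-Cre libraries. The ratio of long to 50 to 200 kb genes was thus 0.930, 0.950 and 1.31 in Trem2-MKO libraries and 1.03, 1.09 and 0.981 in LysM-Cre libraries, with 3 of the 6 libraries above 1 and 3 below. The mean log2 ratio was 0.06 ± 0.18 (SD, n = 6) and did not differ from 0 beyond the spread between libraries (exact two-sided sign-flip permutation test over 64 patterns, p = 0.594; the smallest p possible is 0.03125). The 6 libraries were called against shared pooled controls, so they are not fully independent. That limit also holds for the genotype tests and for the counts of regions shared between libraries below.

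The genotypes did not differ in this ratio beyond their spread. The log2 ratio averaged 0.07 ± 0.27 in Trem2-MKO and 0.05 ± 0.08 in LysM-Cre libraries (SD, n = 3 each), a difference of 0.02 (exact two-sided permutation test over 20 assignments, p = 1; the smallest p possible is 0.1). The share of all peaks that lay in long genes was 7.13%, 7.45% and 8.34% in Trem2-MKO libraries and 7.73%, 7.86% and 7.49% in LysM-Cre libraries. The means were 7.64% ± 0.627 in Trem2-MKO and 7.69% ± 0.188 in LysM-Cre libraries (SD, n = 3 each), a difference of −0.05 percentage points (same exact permutation test, p = 0.9). Among peaks with −log10 q of 2 or more (a q-value of 0.01 or less) the difference was −0.681 percentage points (exact permutation p = 0.3). Peak numbers per Mb followed the list sizes, and the genotype means of 5.58 ± 5.38 in Trem2-MKO and 9.67 ± 2.87 in LysM-Cre long genes (SD, n = 3 each) overlapped (exact permutation p = 0.3).

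Trem2-MKO replicate 3 stood apart in how its density followed gene length. Over its own density in 50 to 200 kb genes, it had 0.737 of that density in genes under 50 kb, 1.09 in genes of 200 to 500 kb, 1.20 in those of 500 to 750 kb, 1.40 in those of 750 to 1000 kb and 1.35 in those of 1000 kb or longer. The other 5 libraries stayed between 0.862 and 1.19 in every length class. In genes of 1000 kb or longer the other Trem2-MKO libraries had 0.873 and 0.893, and LysM-Cre libraries had 1.01, 1.09 and 0.862. Without Trem2-MKO replicate 3 the mean log2 ratio of long to 50 to 200 kb genes was −0.01, and the genotype difference in that ratio turned to −0.14 (exact permutation p = 0.2).

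**Figure D1:**
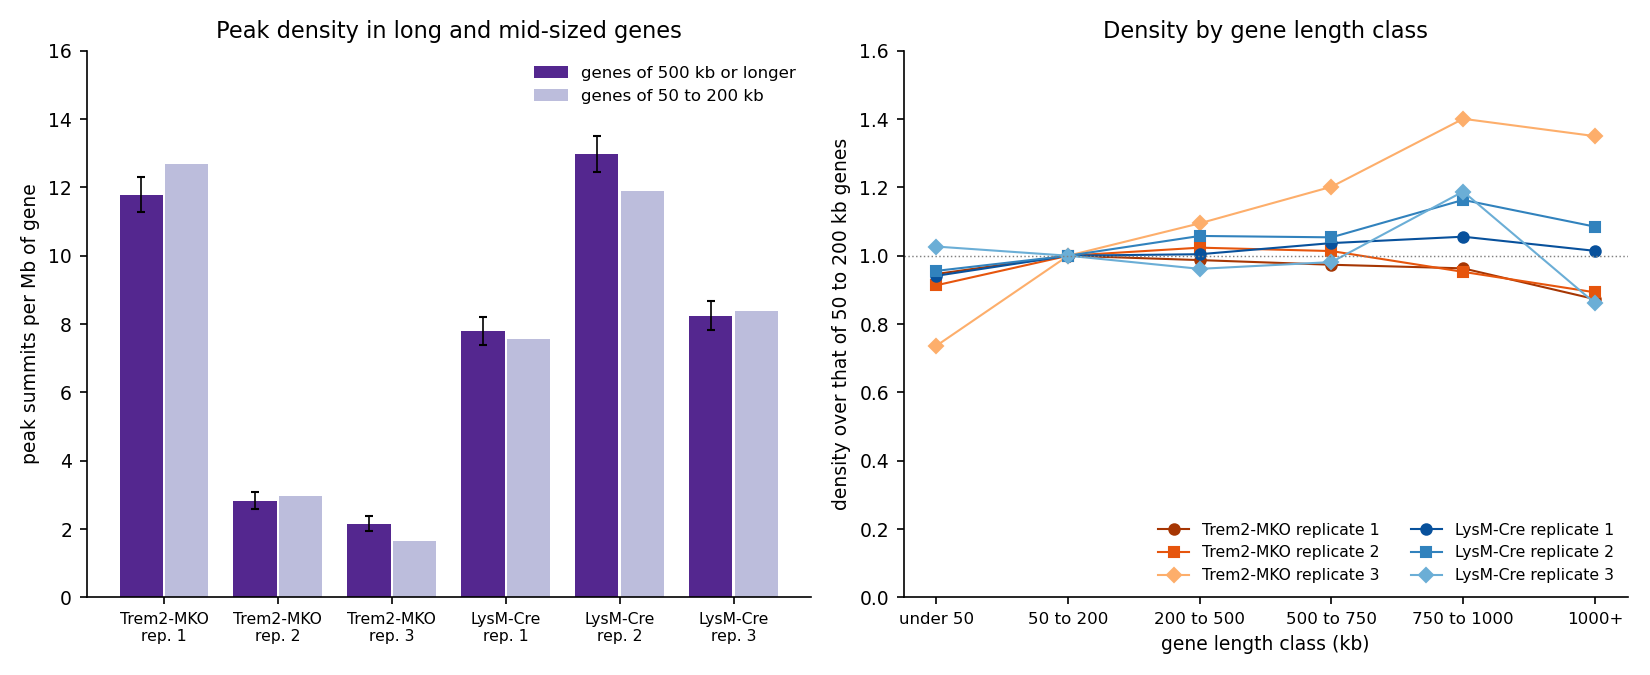
Left, peak summits per Mb in genes of 500 kb or longer (dark bars, with 95% Poisson counting intervals) and in genes of 50 to 200 kb (light bars) for each library, Trem2-MKO at left and LysM-Cre at right. Right, summits per Mb in each gene length class over that of 50 to 200 kb genes in the same library; Trem2-MKO replicate 3 reaches 1.40 while the other 5 libraries stay between 0.862 and 1.19.

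Over all peaks, summits were spread close to evenly from the start to the end of long genes. The central 50% of the gene held 50.1%, 50.8% and 52.0% of long-gene summits in Trem2-MKO libraries and 50.0%, 50.4% and 50.9% in LysM-Cre libraries, where an even spread gives 50%. The means were 51.0% ± 0.978 in Trem2-MKO and 50.4% ± 0.460 in LysM-Cre libraries (SD, n = 3 each) and differed by 0.575 percentage points (exact permutation p = 0.5). Against the 50 to 200 kb genes of the same library, the share in the central 50% was 0.309 percentage points higher on average, with 4 libraries higher and 2 lower (exact sign-flip p = 0.594). This difference was larger among strong peaks. With −log10 q of 2 or more, 51.3%, 53.3% and 57.1% of long-gene summits lay in the central 50% in Trem2-MKO libraries and 52.7%, 50.4% and 53.2% in LysM-Cre libraries, on 355, 60 and 28 summits in Trem2-MKO and 203, 413 and 216 in LysM-Cre libraries. The 50 to 200 kb genes had 48.2%, 39.6% and 48.4% in Trem2-MKO libraries and 49.4%, 50.7% and 46.4% in LysM-Cre libraries. The mean difference was 5.89 percentage points, with 5 of 6 libraries higher in long genes (exact sign-flip p = 0.0625), and with equal numbers of the strongest peaks it was 1.66 percentage points, again in 5 of 6 (p = 0.0625 by the same exact test). In the 169 long genes with a known strand, the 10% of the gene next to the start held 8.73%, 11.5% and 9.06% of summits in Trem2-MKO libraries and 10.5%, 9.73% and 10.4% in LysM-Cre libraries.

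Gene ends held close to their share of bases. Within 10 kb of either annotated end lay 1.95%, 3.29% and 2.04% of summits in Trem2-MKO libraries and 2.79%, 1.98% and 1.96% in LysM-Cre libraries, where an even spread gives 2.37%. These are 42, 17 and 8 summits in the Trem2-MKO libraries and 40, 47 and 30 in the LysM-Cre libraries. The means of 2.43% ± 0.751 in Trem2-MKO and 2.24% ± 0.474 in LysM-Cre libraries (SD, n = 3 each) did not differ beyond their spread (exact permutation p = 0.7); among peaks with −log10 q of 2 or more the genotype difference was 1.69 percentage points (exact permutation p = 0.2). In the first 1 kb after the start, the long genes of known strand held 3, 4 and 1 summits in Trem2-MKO libraries and 3, 1 and 3 in LysM-Cre libraries. Over the number an even spread gives, these were 1.54, 8.74 and 2.80 in Trem2-MKO libraries and 2.36, 0.467 and 2.25 in LysM-Cre libraries, on counts of at most 4. In 50 to 200 kb genes of known strand the same ratios were 0.922, 2.29 and 2.04 in Trem2-MKO libraries, on 35, 20 and 10 summits. In LysM-Cre libraries they were 1.10, 1.15 and 2.55, on 24, 40 and 62 summits.

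**Figure D2:**
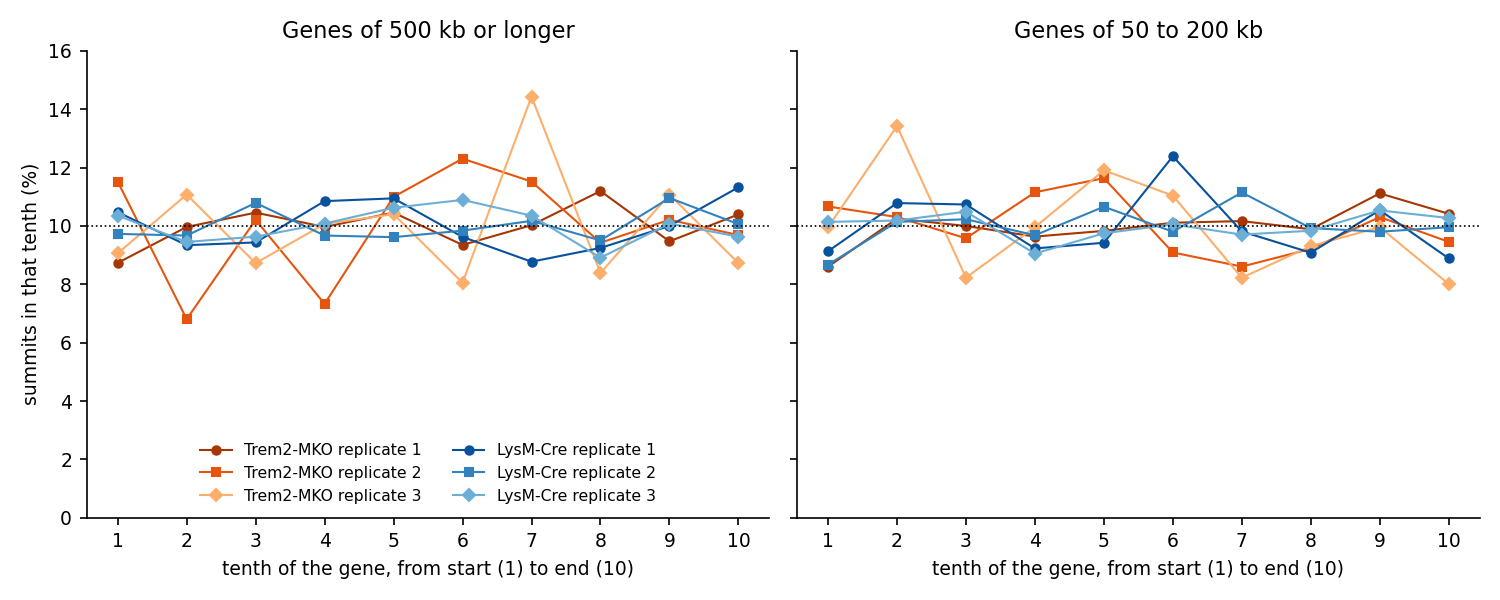
Percent of summits in each 10% bin of the gene, from start (bin 1) to end (bin 10), in genes of 500 kb or longer (left) and of 50 to 200 kb (right) with a known strand. Each line is a library and the dotted line marks the 10% of an even spread; LysM-Cre libraries stay between 8.77% and 11.3% in long genes, and the 2 shortest lists, Trem2-MKO replicates 2 and 3, scatter most, up to 12.3% and 14.4%.

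By median fold, peak strength was like that of shorter genes. Peaks with −log10 q of 2 or more made up 16.3%, 11.8% and 7.25% of long-gene peaks in Trem2-MKO libraries. In LysM-Cre libraries they made up 14.17%, 17.17% and 14.03%. The 50 to 200 kb genes had 16.7%, 13.2% and 11.1% in Trem2-MKO libraries and 14.3%, 17.16% and 15.8% in LysM-Cre libraries. The share was thus lower in long genes except in LysM-Cre replicate 2, and it was not tested. The median of the authors' fold per peak was 3.11, 2.63 and 2.68 for long-gene peaks in Trem2-MKO libraries and 3.22, 3.14 and 3.25 in LysM-Cre libraries. Within a library it exceeded the median of 50 to 200 kb genes by 0.0457 on average, with 3 libraries higher and 3 at the same value (exact sign-flip p = 0.25). The genotype medians did not overlap (means 2.80 ± 0.264 in Trem2-MKO and 3.20 ± 0.0533 in LysM-Cre, SD, n = 3 each; exact permutation p = 0.1, the smallest possible), and the 2 lowest belong to the libraries with 20 and 23 fragments at the median summit; the part of that depth in the difference was not tested. By p-value, the strongest long-gene peak of the Trem2-MKO libraries lay in Naaladl2 in replicates 1 and 2 and in Asic2, an acid-sensing channel gene, in replicate 3, and that of the LysM-Cre libraries lay in Immp2l, a mitochondrial peptidase gene, in replicate 1, Negr1, a neuronal adhesion gene, in replicate 2 and Dpyd in replicate 3.

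Single genes were then compared by relative density, the gene's summits per Mb over the same library's summits per Mb in all 50 to 200 kb genes. Most long genes held peaks: 215, 188 and 166 of the 216 in Trem2-MKO libraries and 213, 216 and 205 in LysM-Cre libraries, and 139 in all 6. The 10 longest genes are known in synapses, adhesion or fragile sites and showed both higher and lower values. Ptprd, a receptor tyrosine phosphatase gene of 2271 kb on chromosome 4 (75941237 to 78211742), held 13, 7 and 3 summits in Trem2-MKO libraries and 8, 18 and 4 in LysM-Cre libraries, a relative density of 0.607 ± 0.293 (SD, n = 6 libraries). Cntnap2, a neurexin-family adhesion gene of 2241 kb, held 34, 8 and 2 summits in Trem2-MKO libraries and 15, 29 and 16 in LysM-Cre libraries, a relative density of 0.961 ± 0.254. Both genotypes overlapped at these genes.

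Among the other 8 longest, Lsamp (neuronal adhesion), Dlg2 (synaptic scaffold), Fhit (a tumour suppressor at a fragile site) and Ctnna3 (an α-catenin) had mean relative densities of 0.662, 0.860, 0.795 and 0.734. Lrp1b (a lipoprotein receptor homologue), Macrod2 (an ADP-ribose hydrolase), Csmd1 (a complement regulator) and Nrxn3 (a presynaptic neurexin) had 1.37, 1.47, 1.22 and 1.49. Macrod2 held 24, 12 and 4 summits in Trem2-MKO libraries and 26, 36 and 23 in LysM-Cre libraries, the most of any long gene (125 in all). Over all 216 genes the median relative density was 0.993, with the middle of the distribution between 0.756 and 1.30 (25th and 75th percentiles); 105 genes were above 1 and 111 below. Gene length and relative density were unrelated across genes (Pearson r of log2 length −0.03 over 216 genes, which share libraries and chromosomes).

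The highest relative density belonged to Dpyd, which encodes the enzyme that starts the breakdown of uracil and thymine and is active in liver. This gene of 871 kb on chromosome 3 (118562109 to 119432924) held 20, 9 and 2 summits in Trem2-MKO libraries and 19, 30 and 29 in LysM-Cre libraries. Its relative density was 1.81, 3.48 and 1.40 in Trem2-MKO libraries and 2.89, 2.90 and 3.97 in LysM-Cre libraries, a mean of 2.74 ± 0.976 (SD, n = 6) that was above 1 in every library. Next came Cpq (a carboxypeptidase), Ank2 (ankyrin-B, a membrane scaffold), Cdh18 (a cadherin), Ralyl (an RNA-binding protein gene), Naaladl2 (of the glutamate carboxypeptidase family) and Egfem1, with means between 2.03 and 2.65, and then Npas3 (a neuronal transcription factor), with 2.33 ± 1.25 in Trem2-MKO and 1.66 ± 0.0929 in LysM-Cre libraries (SD, n = 3 each). Dpyd, Ank2, Ralyl, Naaladl2 and Egfem1 lie on chromosome 3, and Cpq and Cdh18 on chromosome 15.

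The lowest relative density belonged to Syne1, a nesprin gene of 531 kb on chromosome 10 (5020192 to 5550692), whose product links the nucleus to the cytoskeleton. It had 0 summits in each Trem2-MKO library and 1, 5 and 0 in LysM-Cre libraries, a mean of 0.174 ± 0.319 (SD, n = 6). Skint5 (a skin-expressed immunoglobulin-family gene), Astn2 (an astrotactin of migrating neurons), Cdkal1 (a tRNA-modifying enzyme) and Ryr2 (the calcium release channel of heart muscle) had 0.202, 0.342, 0.357 and 0.377. A set of 11 genes, Dpyd, Cdh18, Ralyl, Naaladl2 and Npas3 among them, were above 1 in every library. Another 16, including Syne1, Skint5, Astn2, Cdkal1 and Ryr2, were below 1 in every library. At the length limit itself, Edil3 (502 kb), Dock1 (503 kb) and Samd12 (503 kb), just inside it, had 0.646, 0.625 and 1.57, and Dnm3 (496 kb), Lrrc7 (495 kb) and Cacna1e (494 kb), just outside it, had 1.01, 1.92 and 1.48.

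Much of this variation followed the chromosome. All 15 long genes of chromosome 3 were above 1, and chromosome 3 held 9 of the 20 highest genes, whereas 17 of the 20 lowest lay on chromosomes 4, 10, 13, 14 or 16, the 5 whose long genes had a median below 0.8. On chromosome 3 the long genes together had a relative density of 1.52, 2.29 and 1.17 in Trem2-MKO libraries and 1.89, 1.84 and 2.56 in LysM-Cre libraries. The 50 to 200 kb genes of that chromosome had 1.54, 2.25 and 0.559 in Trem2-MKO libraries and 1.46, 1.53 and 2.55 in LysM-Cre libraries. Chromosome 14 was low in both sets: its long genes had 0.713, 0.544 and 1.57 in Trem2-MKO libraries and 0.633, 0.754 and 0.341 in LysM-Cre libraries, and its 50 to 200 kb genes had 0.623, 0.493 and 1.29 in Trem2-MKO libraries and 0.737, 0.616 and 0.218 in LysM-Cre libraries. Trem2-MKO replicate 3 departed from the other 5 libraries on both chromosomes.

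Set against the 50 to 200 kb genes of their own chromosome, the long genes drew together, with a median of 1.06 and 25th and 75th percentiles of 0.883 and 1.27. Cpq was then the highest, with 2.31. Npas3 had 2.07, Cdh18 1.96 and Dpyd, no longer the highest, 1.78, while Syne1 and Skint5 stayed lowest at 0.271 and 0.280. Ptprd had 0.929 and Lsamp 0.988. The spread of the summit counts over the 216 genes, as a variance over that expected from length alone, was 1.86, 1.26 and 1.10 in Trem2-MKO libraries and between 1.74 and 4.19 in LysM-Cre libraries. With the chromosome in the expectation it was 1.34, 0.851 and 1.33 in Trem2-MKO libraries and 1.11, 1.25 and 1.72 in LysM-Cre libraries, where 1 is counting error alone; Trem2-MKO replicate 3 was the library in which it did not become smaller. Across the 216 genes, relative densities of pairs of libraries other than Trem2-MKO replicate 3 correlated with Pearson r between 0.280 and 0.623, and after the chromosome was taken out between −0.0846 and 0.215. Pairs with Trem2-MKO replicate 3 had r between 0.00326 and 0.106. These coefficients are across genes, which share chromosomes and list sizes, and carry no test.

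**Figure D3:**
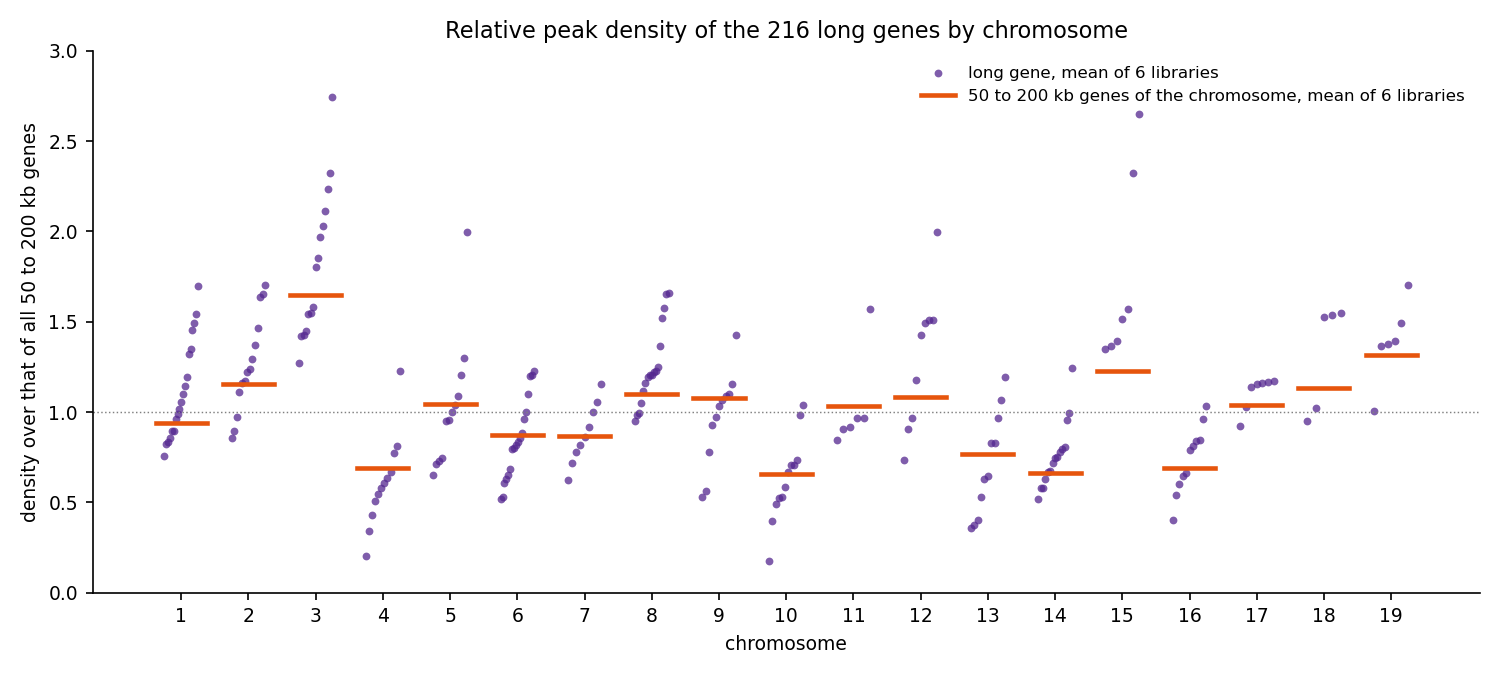
Relative density of the 216 long genes (dots, mean of 6 libraries, in order of value within a chromosome) by chromosome, with the same mean for all 50 to 200 kb genes of the chromosome (bars). Long genes of chromosome 3 are all above 1 and their chromosome's bar is the highest.

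In 12 long genes all 3 Trem2-MKO libraries had a higher relative density than all 3 LysM-Cre libraries, and in 12 all 3 were lower (5.56% of 216 each). The background over the 4725 genes of 50 kb or longer was 1.31% higher and 7.13% lower, and in genes of 200 to 500 kb it was 3.70% higher and 8.37% lower, so the shares differed between gene lengths. A gene could be higher only where each Trem2-MKO library held a summit in it. In Trem2-MKO replicate 3, 13.7% of 50 to 200 kb genes held one, beside 76.9% of long genes. The shares of higher genes are therefore not a like comparison between gene lengths. No test per gene was made, and the counts are small. The 12 higher genes were Pde4b, Dab1, Ctnna2, Foxp1, Cntn4, Sox5, Sox6, Galntl6, Ntm, Dock2, Pde4d and Grid1; Ctnna2, Foxp1, Cntn4 and Sox5 lie on chromosome 6. The 12 lower genes included Pard3b, Nckap5, Sema6d, Negr1, Zfp804b, Grm7, Inpp4b, Mdga2, Mctp1, Dcc and Hpse2.

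Of the higher genes, Dock2, a Rac activator of blood cells, held 7, 3 and 1 summits in Trem2-MKO libraries and 3, 3 and 2 in LysM-Cre libraries, or a relative density of 1.30 ± 0.449 in Trem2-MKO against 0.531 ± 0.158 in LysM-Cre libraries (SD, n = 3 each). Pde4d, a cAMP phosphodiesterase, held 16, 4 and 3 summits in Trem2-MKO libraries and 4, 15 and 2 in LysM-Cre libraries, or 1.14 ± 0.234 in Trem2-MKO and 0.520 ± 0.405 in LysM-Cre libraries. Foxp1, a forkhead transcription factor, had 1.02 ± 0.102 in Trem2-MKO and 0.562 ± 0.246 in LysM-Cre libraries. These differences rest on a handful of peaks per gene, and in Trem2-MKO replicate 3 a gene such as Dock2 or Foxp1 holds 1 summit.

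Of the lower genes, Negr1, a neuronal adhesion gene, held 13, 3 and 0 summits in Trem2-MKO libraries and 8, 17 and 17 in LysM-Cre libraries, or 0.900 ± 0.779 in Trem2-MKO against 1.99 ± 0.645 in LysM-Cre libraries (SD, n = 3 each). Inpp4b, an inositol phosphatase of the PI3K pathway, had 0.772 ± 0.0768 in Trem2-MKO and 1.20 ± 0.189 in LysM-Cre libraries. In 6 of the 12, Negr1 among them, Trem2-MKO replicate 3 held no summit.

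**Figure D4:**
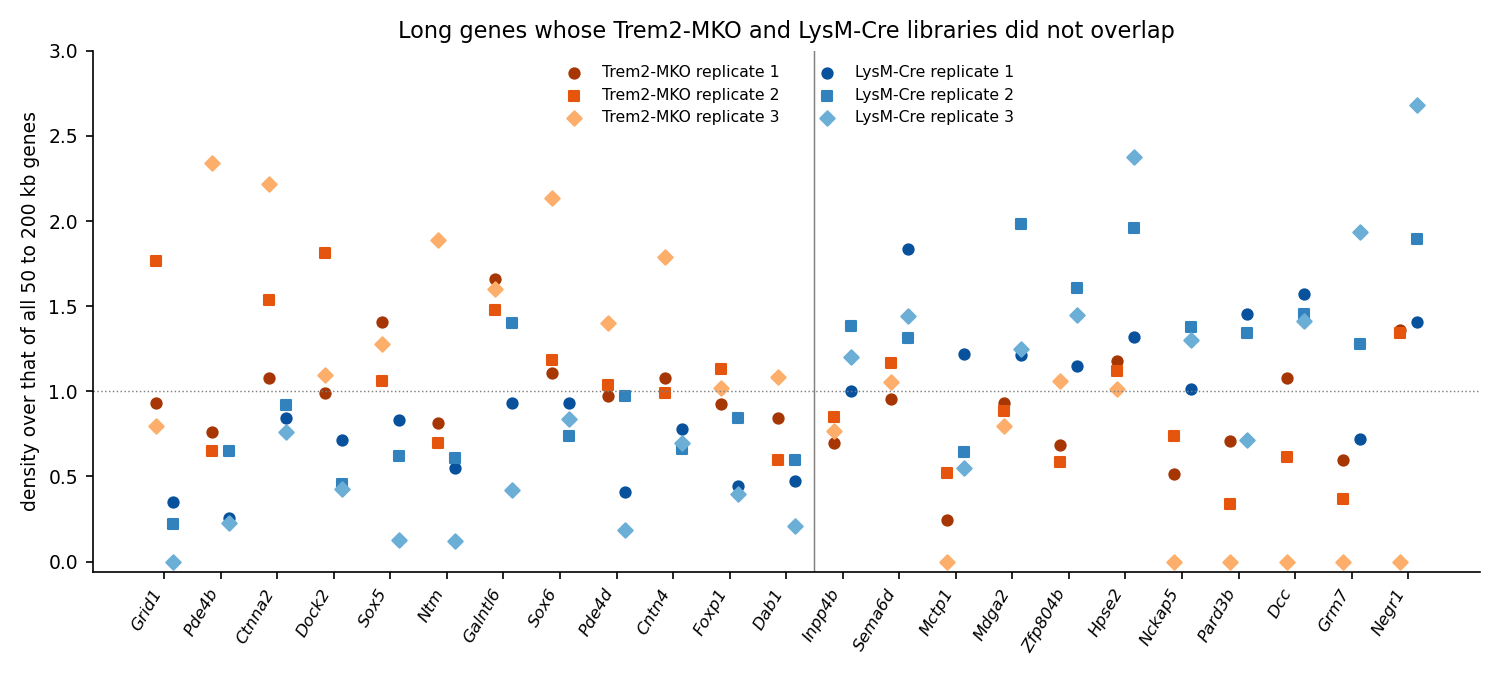
Relative density in each library for 23 long genes whose genotypes did not overlap, the 12 with Trem2-MKO higher at left and 11 with Trem2-MKO lower at right; in each column Trem2-MKO points (orange) stand left of LysM-Cre points (blue). Points at 0 are libraries with no summit in the gene.

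Few peaks of long genes recurred between libraries. Merged over the 6 lists, they formed 7868 regions, of which 346 (4.40%, 95% exact Clopper-Pearson interval 3.96 to 4.87, counting error only) had a peak in 2 or more libraries. Among regions of 50 to 200 kb genes the share was 4.22%, and over all 103935 regions it was 4.44%. Of the long-gene peaks of Trem2-MKO replicates 1, 2 and 3, 2.03%, 7.28% and 8.55% overlapped a peak of another Trem2-MKO library and 5.18%, 8.66% and 7.77% one of a LysM-Cre library. For LysM-Cre replicates 1, 2 and 3, 5.56%, 4.20% and 6.27% overlapped a peak of another LysM-Cre library and 3.99%, 3.60% and 3.57% one of a Trem2-MKO library. Such shares depend on the number and size of the other lists, which held 4627 to 29759 peaks. They therefore do not measure how alike the libraries of a genotype are.

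A peak in 3 or more libraries was found at 24 regions (0.305%), in 24 different genes, beside 0.289% of regions of 50 to 200 kb genes and 0.318% of all regions, and none had one in more than 4. They were 468 to 1047 bases wide, their summits spread over a median of 205 bases, and 14 of them lay in the central 50% of the gene. None was within 10 kb of a gene end, where an even spread would place 0.568 of 24; the nearest lay 23.7 kb from one. The region in Cntnap5a, a neurexin-family gene, at chr1:116392760-116393533, was the one with 4 libraries: a fold of 2.91 in Trem2-MKO replicate 3 and of 3.80, 3.78 and 3.84 in LysM-Cre replicates 1, 2 and 3. Others lay in genes of adhesion (Cdh18, Cntn5), signalling (Pde4d, Rgs6, Nrg1), scaffolds (Ank2, Dlgap1, Sntg1, Sgcz), DNA repair (Rad51b) and other roles.

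In all, 3 regions had a peak in all 3 Trem2-MKO libraries and in no LysM-Cre library (0.0221% of all regions did), and 1 had the reverse pattern (0.0500% of all regions). The strongest, in Naaladl2 at chr3:24197262-24197843, had folds of 6.52, 4.37 and 3.16 in Trem2-MKO replicates 1, 2 and 3. It had 47, 86 and 74 fragments at the summit and local backgrounds of 6.36, 17.0 and 18.0 in them. The local background at that place was above the libraries' median of 2.60, 5.92 and 5.92 in the Trem2-MKO lists. The region in Etl4 at chr2:19992073-19992556 also stood on a local background above those medians, with 50, 95 and 89 fragments at the summit and folds of 3.11, 2.35 and 2.06 in Trem2-MKO replicates 1, 2 and 3. The region in Nrg1, which encodes the growth factor neuregulin 1, at chr8:31830790-31831568, had folds of 2.77, 2.76 and 2.57 with 9, 20 and 21 fragments in the same 3 libraries.

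Genes of 50 to 200 kb held 3 regions of all Trem2-MKO libraries and 8 of all LysM-Cre libraries among 15200. No region sequence is printed and no exon or intron is assigned, since no genome of this build was used here.

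**Figure D5:**
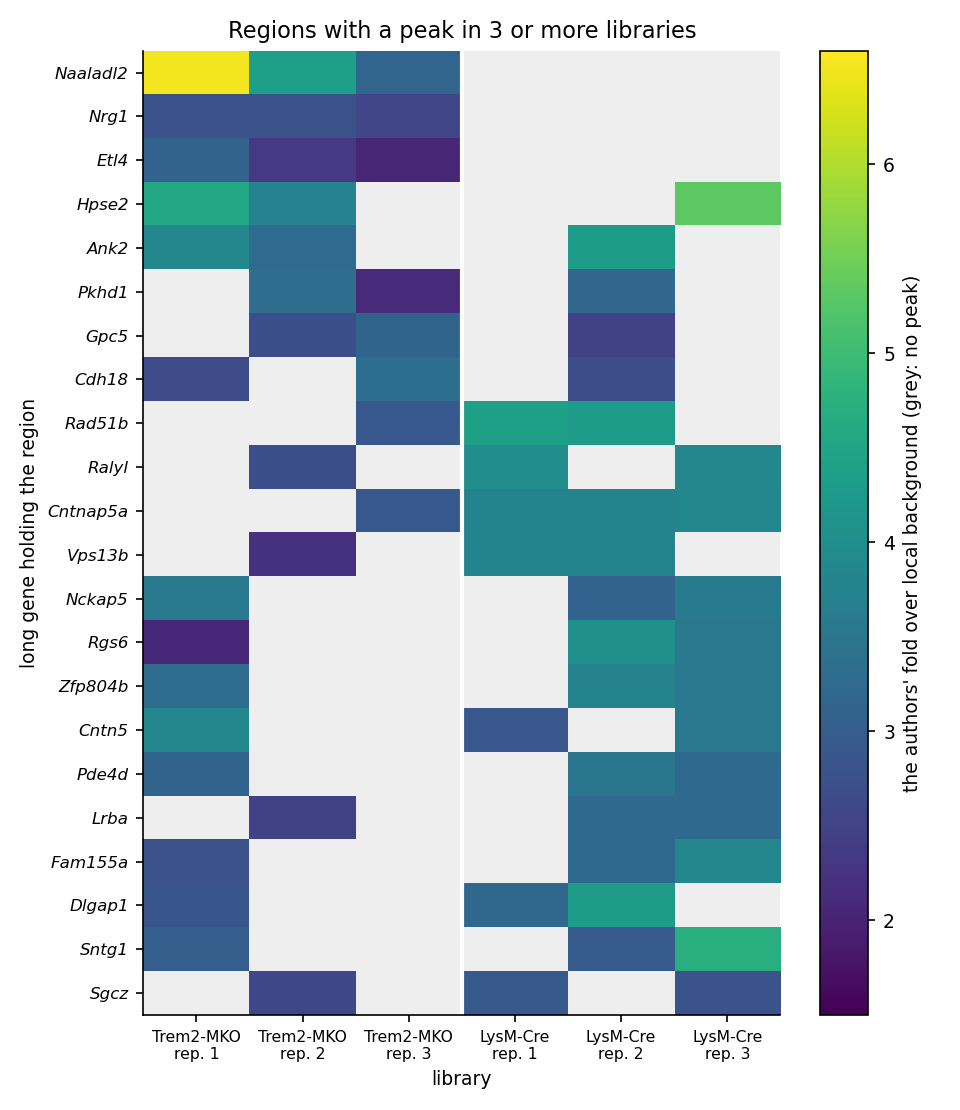
Regions of long genes with a peak in 3 or more libraries (22 of the 24), one per row and named by gene, with the Trem2-MKO libraries at left and the LysM-Cre libraries at right. Colour gives the authors' fold over local background and grey means no peak; the top 3 rows hold peaks of Trem2-MKO libraries alone.

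By function, 153 of the 216 genes belonged to at least 1 of 14 listed classes, and the density of each class was set over that of all long genes in the same library. The class means over the 6 libraries lay between 0.793 and 1.09, and none was tested. Of the surface molecules, the 29 synaptic and neuronal adhesion genes averaged 0.979 ± 0.0542 in Trem2-MKO and 1.03 ± 0.0665 in LysM-Cre libraries (SD, n = 3 each); Cntnap2 and Lsamp are the longest of them. The 9 cadherin and catenin genes, led by Ctnna3 and Pcdh15 (a cadherin of hair cells), averaged 1.06 ± 0.160 in Trem2-MKO and 1.08 ± 0.0558 in LysM-Cre libraries. The 8 axon guidance genes, led by Robo2 and Dab1, averaged 0.908 ± 0.131 in Trem2-MKO and 0.798 ± 0.182 in LysM-Cre libraries.

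Receptors and channels had class means below 1, between 0.793 and 0.887. The 7 neurotransmitter receptor genes, Grm7 among them, were below 1 in all 6 libraries, at 0.774, 0.837 and 0.945 in Trem2-MKO libraries and 0.754, 0.819 and 0.666 in LysM-Cre libraries. Against the 50 to 200 kb genes of their own chromosomes they had 0.982, where the median of all long genes was 1.06. The 12 ion channel genes, led by Dpp10 and Kcnip4, both partners of Kv4 potassium channels, averaged 0.867 ± 0.0539 in Trem2-MKO and 0.908 ± 0.103 in LysM-Cre libraries. The 8 receptor phosphatase and kinase genes, led by Ptprd and Ptprt, averaged 0.700 ± 0.267 in Trem2-MKO and 0.886 ± 0.139 in LysM-Cre libraries.

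Inside the cell, the 25 cytoskeletal, GTPase regulator and scaffold genes, led by Dlg2 and Magi2, were below 1 in all 6 libraries, between 0.783 and 0.903 in Trem2-MKO and between 0.798 and 0.960 in LysM-Cre libraries, and had 0.898 against the 50 to 200 kb genes of their own chromosomes. The 9 second messenger genes, led by Pde4d and Prkg1 (a cGMP-dependent kinase), averaged 1.01 ± 0.138 in Trem2-MKO and 1.00 ± 0.267 in LysM-Cre libraries. The 18 transcription and chromatin genes, led by Auts2 and Sox5, had 1.16, 0.955 and 1.04 in Trem2-MKO libraries and 0.921, 0.891 and 0.910 in LysM-Cre libraries. These values did not overlap. Of the 14 classes, 1 did not, and no test was made. The 18 genes listed include Lrba, whose product acts in vesicle traffic. Lrba held 39 summits, beside 567 in the class, and the class was not recomputed without it. The 4 RNA-binding genes, led by Rbfox1 and Rbms3, averaged 1.15 ± 0.315 in Trem2-MKO and 0.805 ± 0.166 in LysM-Cre libraries, and the 8 glypican and glycosylation genes, led by Gpc5 and Galntl6, averaged 1.08 ± 0.253 in Trem2-MKO and 0.789 ± 0.199 in LysM-Cre libraries.

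The 20 genes at common fragile sites of human or mouse, led by Lsamp and Lrp1b, were above 1 in all 6 libraries, at 1.02, 1.22 and 1.10 in Trem2-MKO libraries and 1.08, 1.04 and 1.09 in LysM-Cre libraries. Against the 50 to 200 kb genes of their own chromosomes they had 1.06, the same as the median of all long genes. The 20 genes expressed in hepatocytes, Macrod2 among them, averaged 1.02 ± 0.336 in Trem2-MKO and 1.15 ± 0.115 in LysM-Cre libraries. The 14 genes expressed in macrophages or lymphocytes, led by Pde4d and Lrmda, averaged 1.01 ± 0.146 in Trem2-MKO and 0.973 ± 0.0928 in LysM-Cre libraries. Over 50 to 200 kb genes, 9 of the 20 hepatocyte genes and 4 of the 14 macrophage or lymphocyte genes were above 1, beside 105 of all 216 long genes. In whole tumour, a change in the number of such cells and a change within them cannot be told apart.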

How the data were processed

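Each of the 6 H3K36ac libraries had 1 deposited peak list; the 6 inputs were not used here by themselves. Per the submitters' processing notes, the tools included Bowtie2, Picard and MACS2 and the build was mm10; versions are not given in the sources used here. Per the labels' protocols, precipitated DNA was amplified over the whole genome before library preparation. The deposited lists give, for each peak, an integer score, the summit position, the fold (a ratio) above the local background and −log10 of both a p-value and a q-value. These values belong to single peaks called against a pooled control. The fold and p-value were used here within a list, except that median folds were also compared between genotypes.

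Read totals were not used here. Fragments at a summit and the local background were recovered from fold and p-value, which was solved for 100% of peaks in every library within 0.005 on the −log10 p scale. In that solution a fragment counted 0.903 in Trem2-MKO replicate 2, 0.798 in Trem2-MKO replicate 3 and 1 in the other libraries. Local backgrounds are on that scale, whereas the fragment counts are not scaled. Genes came from a RefSeq table without strand or exons; strand came from the promoter table (169 of 216 long genes). Regions are overlapping peaks of the 6 lists joined into 1 (an overlap of 1 bp sufficed). Values were compared per library by exact two-sided permutation tests (NumPy 2.4.6); the labels call the libraries replicates and count 3 mice per genotype, without tying a library to a mouse. Intervals cover counting error only. The functions were tested on simulated data.

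The members, gene lists and tests were chosen with earlier results of these data known. Named genes are the 10 longest, the 8 highest and 5 lowest by relative density, those with a region in 3 or more libraries or in 1 genotype, the 2 longest of each class and those with promoter peaks; the genes whose genotypes did not overlap, the genes of the strongest peaks and those at the length limit were named after their values were seen, and the tissue markers were chosen then too. Results for a few genes are not reported here.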

Additional observations from a re-analysis of the deposited data

How the results depend on the processing

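Of 150 recomputed values, 107 counted as unchanged, 24 moved and 19 reversed. A value with a test counted as unchanged when it kept its sign and its side of the limit of 0.05, whatever its size. Values without a test had an allowed range. Of 99 values with a test, only 17 could have reached p of 0.05 in a design of this size, and none did. The genotype difference in the share of peaks in long genes was 0.0329 percentage points for genes of 400 kb or more and −0.414 for peaks with −log10 p of 5 or more. The genotype difference in the log2 density ratio was −0.016 against 200 to 500 kb genes, −0.042 for peaks with −log10 p of 5 or more, −0.19 for peaks with −log10 q of 2 or more (exact permutation p = 0.2) and −0.012 within chromosomes. The log2 ratio of long to 50 to 200 kb genes was −0.11 for peaks with −log10 q of 2 or more (exact sign-flip p = 0.156). For the central part of the gene, the genotype difference was −1.45 percentage points for genes of 750 kb or more and −1.07 over a narrower central part, and the difference from shorter genes was −0.469 for genes of 750 kb or more and −0.213 against genes of 200 to 500 kb, but 2.84 for peaks with −log10 p of 5 or more (exact sign-flip p = 0.156), beside the larger value for −log10 q given above. Near gene ends the genotype difference was −0.282 for genes of 400 kb or more and 1.06 for peaks with −log10 p of 5 or more. The causes were not tested.

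The share of regions in 2 or more libraries was 2.64% for peaks with −log10 p of 5 or more, 1.89% with −log10 q of 2 or more and 2.80% with equal numbers of the strongest peaks, settings that fewer peaks enter. It was 2.56% where a shared peak had to cover 50% of both, a stricter overlap of the same peaks. Regions of all LysM-Cre libraries alone numbered 4 for genes of 400 kb or more and 0 under those 3 settings with fewer peaks. The mean share of long genes with a peak, 92.8% with all peaks, was 73.6%, 50.5% and 74.3% under them.

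Leaving out 1 library at a time gave −0.401 to 0.203 percentage points for the share by genotype, −0.14 to 0.11 for the log2 density ratio by genotype, −0.0068 to 0.091 for the log2 ratio of long to shorter genes, 0.0437 to 1.01 and −0.0550 to 0.624 percentage points for the central part by genotype and against shorter genes, and −0.248 to 0.458 for gene ends. The share in 2 or more libraries was 3.37% to 3.90%; regions of one genotype alone numbered 3 to 22 (Trem2-MKO) and 1 to 50 (LysM-Cre), the higher counts arising where a genotype was left with 2 libraries.

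No pairing of the libraries by replicate number was seen. Same-numbered libraries deviated from their genotype means with r of 0.00689, −0.189 and −0.111 over genes, and no library correlated best with its own number. Counts per gene are small, so this check could miss a pairing. With a replicate block, the genotype differences were unchanged by construction at −0.0503, 0.02, 0.575 and 0.185, with exact sign-flip p of 1, 1, 0.25 and 0.75. With lists of 4627 to 29759 peaks, a gene of 500 kb holds about 1 summit in the shortest list, which limits every value for a single gene.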
